A study of Homo sapiens with 9 samples.

Results

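Peaks of p300 that were found in 1 library and in no other were followed here for the first of 3 libraries from PC3 cells given MnTE-2-PyP. Its list, called treated list 1 below, held 4922 peaks. The set was chosen by overlap: a peak was taken when it shared no base with any peak of the other 4 lists. This left 3558 private peaks, 72.3% of the list (95% Wilson interval 71.0 to 73.5%, which covers counting error only), out of 19861 peaks in all 5 lists. The share depends on which peaks the lists hold: with every list limited to its 528 top-scoring peaks, 139 peaks (26.3%) were private. That limit changes list length and score rank together. In the full lists, 15.2% of the highest decile of treated list 1 by score was private. The other 1364 peaks of the list are called its shared peaks. Being private was thus fixed by the choice itself and is a description, and a peak missing from a list may lie just under that list's threshold.

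PC3 is an established human prostate cancer cell line that was derived from a bone metastasis. All groups were irradiated with 20 Gy and fixed 1 h later. The treated group (3 p300 libraries) had first received 30 µM MnTE-2-PyP for 24 h, and the untreated group (2 p300 libraries) had received no drug. The drug is a porphyrin with manganese at its centre that acts like the enzyme superoxide dismutase. The 4 input libraries were not analysed here. The libraries are described as biological replicates, all of the same line, and every comparison is of peak lists with unknown read depth.

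p300 is a histone acetyltransferase and transcriptional coactivator. It does not read a DNA sequence itself but is brought to promoters and enhancers by DNA-binding factors, where it acetylates histones and other proteins. A ChIP-seq peak marks a stretch where more precipitated fragments lay than the peak caller expected, so peak lists depend on the yield and depth of the library and on how many copies of a stretch the cells carry. PC3 cells are known for a heavily rearranged karyotype. No copy-number profile or input signal was used here, so the number of DNA copies behind each stretch is unknown, and its part in the results was not tested.

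Few of the private peaks were near misses of the overlap rule. The nearest peak of another list lay at most 10 bp away for 5 of the 3558, the closest touching with a gap of 0 bp. On the other side of the rule, 1 shared peak overlapped its partner by at most 10 bp, by 8 bp, and the median overlap of the shared peaks was 234 bp. Of the shared peaks, 680 overlapped 1 other list, 317 overlapped 2, 207 overlapped 3 and 160 overlapped all 4. Treated list 2, by far the longest, held the partner of 1043 of them, untreated list 1 of 703, untreated list 2 of 508 and treated list 3, the shortest, of 321. Private peaks made up 57.1% and 66.8% of untreated lists 1 and 2 and 85.9% and 15.3% of treated lists 2 and 3, so the share of treated list 1 lay between those of the other treated lists.

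Most private peaks lay in the neighbourhood of a peak seen elsewhere without touching it. The median distance to the nearest peak of any other list was 16.9 kb. A peak of another list lay within 500 bp of 234 private peaks (6.58%), within 5 kb of 1044 (29.3%) and within 50 kb of 2586 (72.7%). Only 82 (2.30%) stood more than 500 kb from every other list. By single list the median distance was 24.2 kb to treated list 2, 92.9 kb to untreated list 1, 111.7 kb to untreated list 2 and 1303 kb to treated list 3, which is the order of the lengths of those lists. The private peaks of untreated list 1 were spaced alike, with a median of 14.4 kb and 71.0% within 50 kb. Those of treated list 2 stood further off, at a median of 70.2 kb and 43.9% within 50 kb. Their own list is the longest, so they were measured against fewer peaks of other lists.

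All 24 chromosomes held private peaks of treated list 1, but 5 of them held 2094. Chromosome 10 had the most in the full lists, with 584 private peaks or 16.4% (95% Wilson interval 15.2 to 17.7%), although it makes up 4.52% of the genome span, taken per chromosome between its outermost peaks. Chromosome 1 held 443 (12.5%, against 8.32% of the span), chromosome 8 held 409 (11.5%, interval 10.5 to 12.6%, against 4.71%), chromosome 14 held 355 (9.98%, against 2.93%) and chromosome 17 held 303 (8.52%, against 2.71%). With lists limited to 528 peaks each as above, chromosome 10 held 7.91% and chromosome 8 held 8.63% of the 139 private peaks, too few to order them. With lists limited to peaks at or above their median score, chromosome 10 held 17.7% and chromosome 8 held 10.8% of 1670 private peaks. The 5 chromosomes named, picked for holding the most private peaks of treated list 1, make up 23.2% of the span and held 58.9% of the private peaks. The shared peaks of treated list 1 had shares of 16.1%, 11.8%, 8.87%, 5.79% and 4.33% on chromosomes 10, 1, 8, 14 and 17. On chromosome 10 private and shared peaks were thus similarly concentrated, and on the others the private share was the higher. In the private peaks of the other lists, which share no peak with this set, the same chromosomes held 51.7% and 41.9% for untreated lists 1 and 2, and 33.8% and 45.7% for treated lists 2 and 3. All these shares were above the span share. Since the chromosomes were picked on treated list 1, its own share on these 5 together is not compared with the others.

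**Figure D1:**
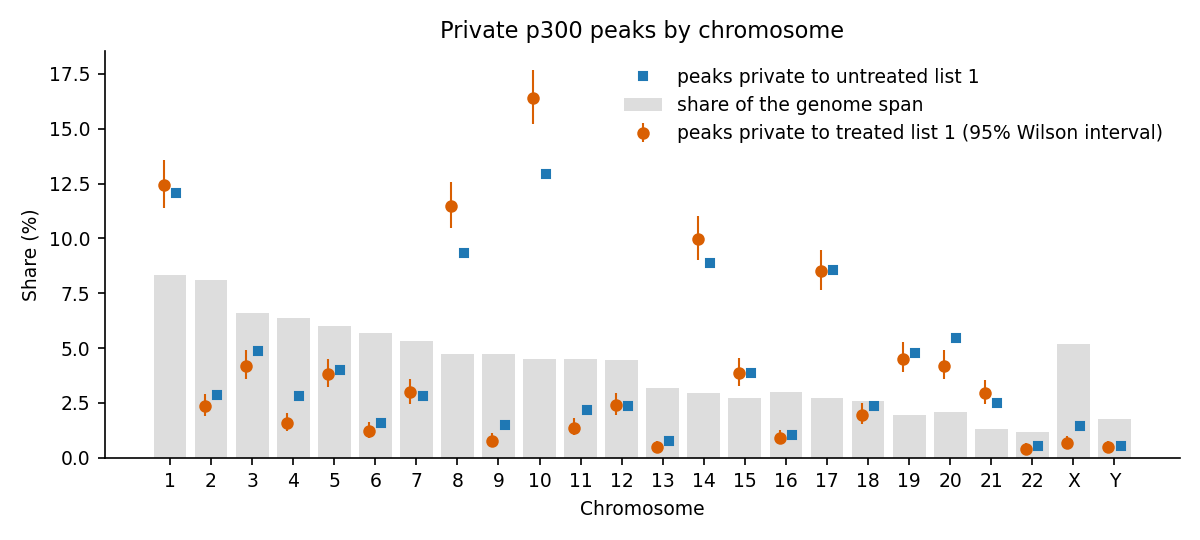
Share of private peaks on each chromosome (y axis, percent) for treated list 1 (circles with 95% Wilson intervals) and untreated list 1 (squares), over bars that give the share of the genome span. Chromosome 10 stands highest in both sets, at 16.4% and 13.0%, and the same 9 chromosomes stand above their bars in both sets.

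Per length the order of the chromosomes differed. Private peaks averaged 1.19 per Mb over the whole span and reached 4.31 per Mb on chromosome 10, 4.04 on chromosome 14, 3.74 on chromosome 17 and 2.90 on chromosome 8. Chromosome 1, second by count, had 1.78 per Mb, less than the 2.73 of chromosome 19, the 2.71 of chromosome 21 and the 2.37 of chromosome 20. The lowest density was on the X chromosome, at 0.155 per Mb (24 peaks), followed by chromosome 13 at 0.177 (17 peaks) and chromosome 9 at 0.198 (28 peaks). The same 9 chromosomes exceeded their share of the span in treated list 1 and in untreated list 1 (chromosomes 1, 8, 10, 14, 15, 17, 19, 20 and 21).

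How much of a chromosome's peaks were private also varied. The private share was highest on chromosome 18, at 84.3% of its 83 peaks in treated list 1, and on chromosome 17, at 83.7% of 362 (95% Wilson interval 79.5 to 87.1%). It was lowest on chromosome 9, at 36.4% of 77 (26.5 to 47.5%), chromosome 4, at 39.4% of 142 (31.8 to 47.7%), and the Y chromosome, at 41.5% of 41 (27.8 to 56.6%). Chromosome 10, with the most private peaks, had 72.6% private, close to the 72.3% of the whole list. Chromosome 4 held 6.30% of the shared peaks against 1.57% of the private ones, whereas chromosome 14 held 5.79% of the shared and 9.98% of the private ones.

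Within chromosomes the private peaks were crowded into few windows. Of 602 windows of 5 Mb that held a peak of any list, 426 held a private peak of treated list 1, with a median of 3, and 129 of these held only 1. By contrast 14 windows held 50 or more, and the 35 fullest windows were enough to reach 50% of the set. The fullest lay on chromosome 10 from 75 to 80 Mb with 168 private peaks (4.72% of the set) and from 80 to 85 Mb with 150 (4.22%). Next came the 5 Mb from 140 Mb of chromosome 8 with 115 (3.23%). They were followed by chromosome 14 from 65 to 70 Mb with 75, chromosome 14 from 70 to 75 Mb with 73, chromosome 17 from 75 to 80 Mb with 71, chromosome 10 from 35 to 40 Mb with 68, chromosome 15 from 20 to 25 Mb with 64, chromosome 10 from 70 to 75 Mb with 56 and chromosome 1 from 0 to 5 Mb with 54. With borders moved by 2.5 Mb the fullest window was on chromosome 10 from 77.5 to 82.5 Mb, with 231, and each of the 10 fullest overlapped one of the windows named here.

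These 10 windows cover 50 Mb, 1.67% of the span, and were picked on treated list 1, where they held 894 private peaks, or 25.1%. The other lists decide which peaks of treated list 1 are private, so the sets are not independent. The private peaks of the other lists, which are not members of this set, were crowded there as well. They numbered 296 in untreated list 1 (22.4%, 95% Wilson interval 20.3 to 24.8%) and 212 in untreated list 2 (15.6%). Treated list 2 placed 941 (10.9%) there and treated list 3 placed 13 of its 81 (16.0%). Every list thus placed more of its private peaks there than the 1.67% of the span. By count treated list 2, with 8638 private peaks against 3558, exceeded treated list 1 in 3 of the 10. On chromosome 8 from 140 Mb it had 240 against 115 and on chromosome 17 from 75 Mb 156 against 71. At the start of chromosome 1 it had 192 against 54. As a share of each private set it was higher only at the start of chromosome 1 (2.22% against 1.52%). On chromosomes 8 and 17 it was lower, at 2.78% against 3.23% and 1.81% against 2.00%. On chromosome 10 it was lower by count as well, with 54 against 168 from 75 Mb and 81 against 150 from 80 Mb.

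Private peaks were not a fixed part of these windows. The share of treated list 1 that was private ran from 52.4% at the start of chromosome 1 (54 of 103 peaks) and 60.4% on chromosome 15 from 20 Mb (64 of 106) to 91.0% on chromosome 17 from 75 Mb (71 of 78) and 93.3% on chromosome 10 from 70 Mb (56 of 60). Over all 10 windows it was 75.1%, against 71.4% elsewhere. The private share was also higher inside than outside in untreated list 1 (64.2% against 55.3%) and treated list 3 (21.0% against 14.6%), and lower in untreated list 2 (62.5% against 67.6%) and treated list 2 (75.9% against 87.3%).

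Chromosome 10 was divided into sharply different parts. From 0 to 30 Mb it held 2 private peaks of treated list 1. From 30 to 45 Mb it held 102 (6.80 per Mb), from 45 to 50 Mb 2, and from 50 to 75 Mb 156 (6.24 per Mb). From 75 to 85 Mb it held 318 (31.8 per Mb), which is 8.94% of the set (95% Wilson interval 8.04 to 9.92%) on 0.334% of the span. From 85 Mb to the end it held 4, or 0.0727 per Mb. Untreated list 1 gave 1, 30, 4, 39, 94 and 3 private peaks in the same parts, and untreated list 2 gave 2, 19, 3, 37, 34 and 8. Treated list 2 gave 25, 90, 20, 136, 135 and 89, so it too was densest from 75 to 85 Mb, but it kept more peaks in the outer parts. Treated list 3 had 1 private peak from 75 to 85 Mb and 9 on the rest of the chromosome, too few to read a profile from.

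Among all shared peaks of a list, the stretch from 75 to 85 Mb held 9.82% for treated list 1, 8.02% for treated list 2, 7.09% for untreated list 2 and 6.45% for untreated list 1. Among private peaks it held 8.94%, 1.56%, 2.496% and 7.12% in the same order. For treated list 3 it held 2.68% of the shared and 1.23% of the private peaks. Private and shared peaks were therefore similarly concentrated there in treated list 1 and in untreated list 1, whereas in treated list 2 and untreated list 2 the shared peaks were the more concentrated. The private peaks of treated list 1 in this stretch lay close to peaks of other lists, at a median of 2.74 kb against 16.9 kb over the whole set.

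The dense part of chromosome 10 ended abruptly. The last private peak of treated list 1 ended at base 81932670 and the next began at base 101066468, which left 19.1 Mb with none. In the 5 Mb before that last peak treated list 1 had 243 private peaks, while the 5 Mb after it had no peak of the list, private or shared. The end was set on treated list 1, but the other lists changed there too. Untreated list 1 had 72 private peaks in the 5 Mb before and 3 in the 5 Mb after, untreated list 2 had 25 and 1, and treated list 2 had 110 and 5. With all peaks the counts before and after were 128 and 4 in untreated list 1, 67 and 1 in untreated list 2, 202 and 6 in treated list 2 and 9 and 1 in treated list 3.

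Stretches of the same kind lay on chromosomes 14 and 1, the only other chromosomes where at least 50 private peaks within 5 Mb bordered a gap of 5 Mb or more. On chromosome 14 private peaks of treated list 1 ended at base 73980185, with 54 in the last 1 Mb. A single one followed at 80657094 to 80657286, and they resumed at base 90809156 with 50 in the next 5 Mb. Across the border at 73980185 untreated list 1 went from 31 private peaks to 2, untreated list 2 from 16 to 0 and treated list 2 from 46 to 10. At the border where they resumed, these lists went from 0 to 15, from 0 to 3 and from 2 to 31. On chromosome 1 private peaks resumed at base 199797694 after 9.02 Mb without any, with 50 in the next 5 Mb. There untreated list 1 went from 0 to 13, untreated list 2 from 0 to 13 and treated list 2 from 1 to 59.

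**Figure D2:**
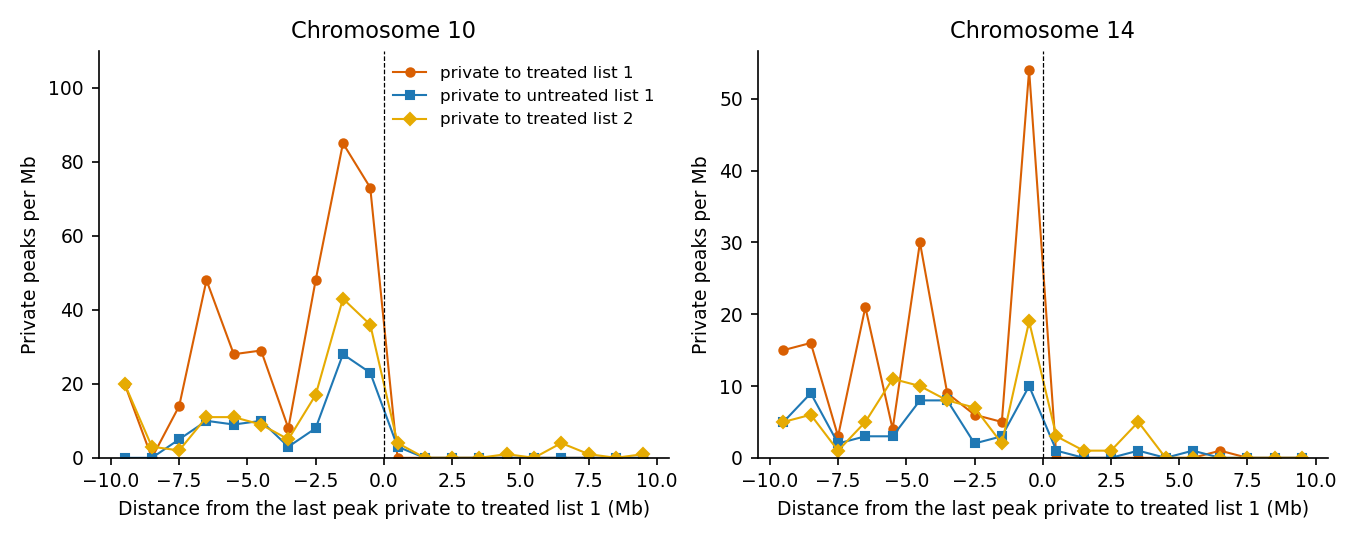
Private peaks per Mb (y axis) by distance from the last peak private to treated list 1 (x axis, Mb) on chromosomes 10 and 14, for treated list 1, untreated list 1 and treated list 2. Treated list 1 falls from 73 and 54 private peaks in the last Mb to 0 by construction, and both other lists fall at the same place, untreated list 1 from 23 to 3 and from 10 to 1.

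Chromosome 8 showed a different profile. From 0 to 65 Mb it held 5 private peaks of treated list 1 and from 65 to 70 Mb 3. From 70 to 140 Mb they were spread over the whole length, with 256 (3.66 per Mb). The next 5 Mb held 115 (23 per Mb) and the rest of the chromosome 30. The private peaks of untreated list 1 numbered 6, 1, 56, 39 and 21 in these parts, those of untreated list 2 numbered 2, 0, 53, 52 and 13, and those of treated list 2 numbered 41, 15, 198, 240 and 62. The part from 70 to 140 Mb held 7.20% of the private peaks of treated list 1, 4.24% and 3.89% of those of untreated lists 1 and 2 and 2.29% of those of treated list 2. In the 5 Mb from 140 Mb these 4 lists were closer, at 3.23%, 2.95%, 3.82% and 2.78%. Treated list 3 had 6 of its 81 private peaks from 70 to 140 Mb (7.41%) and 0 in the following 5 Mb. The window from 85 to 90 Mb stood apart, since only 19 of the 69 peaks of treated list 1 there were private (27.5%). The other lists held 47 and 31 peaks there without the drug and 43 and 42 with it, of which 1, 6, 10 and 0 were private. The 19 private peaks had a median score percentile of 74.9, against 43.7 over the whole set.

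The peak names of treated list 1 and untreated list 1 carry the same run tag, so their private peaks were set side by side. Untreated list 2 and treated list 3 also share a number in their peak names, whose meaning is not given, and treated list 2 shares its number with no other list. There were 2.70-fold more private peaks in treated list 1 (3558 against 1320), 1.37-fold more shared peaks (1364 against 993) and 2.13-fold more peaks in all. Each side is 1 list, so these ratios have no replicate check. The share on chromosome 10 was higher by 3.46 percentage points in treated list 1 (16.4% against 13.0%, 95% Newcombe interval 1.21 to 5.57 points for counting error alone), and on chromosome 8 by 2.18 points (11.5% against 9.32%). Both chromosomes stood out by the private peaks of treated list 1, which favours higher shares for it there. The interval makes no allowance for this choice, and peaks of 1 library are not replicates. The X chromosome had the lowest ratio of shares, 0.469 (0.675% against 1.44%), and chromosome 10 the highest, 1.27.

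Window by window the private peaks of these 2 lists were fullest in the same places. Across the 602 windows their counts gave Pearson's r of 0.940 and Spearman's rho of 0.613. The corresponding values were 0.722 and 0.646 with untreated list 2, 0.630 and 0.652 with treated list 2 and 0.353 and 0.291 with treated list 3. By r untreated list 1 was thus the most alike, whereas by rho it ranked below untreated list 2 and treated list 2. These values describe windows that share the same genome and the same dense stretches, and windows are not replicates. Among 62 windows with at least 20 private peaks in the 2 lists together, the share in treated list 1 was at least 2-fold that in untreated list 1 in 8.06% (5 windows) and at most 0.5-fold in 0% (0 windows), with counts under 3 set to 3. Since treated list 1 has more private peaks, windows pass this minimum more easily where its share is high, so the 2 counts are not set against each other. Of the 9 such windows on chromosome 8, 2 were past the 2-fold line, those starting at 85 Mb (19 against 1 private peak) and at 100 Mb (36 against 6). Of the 8 on chromosome 10, 1 was past it, from 65 to 70 Mb (26 against 4). The other 2 lay on chromosome 21 from 10 to 15 Mb (25 against 4) and chromosome 1 from 15 to 20 Mb (18 against 2). None of the 10 fullest windows was past it, and their ratios ran from 0.691 to 1.60.

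**Figure D3:**
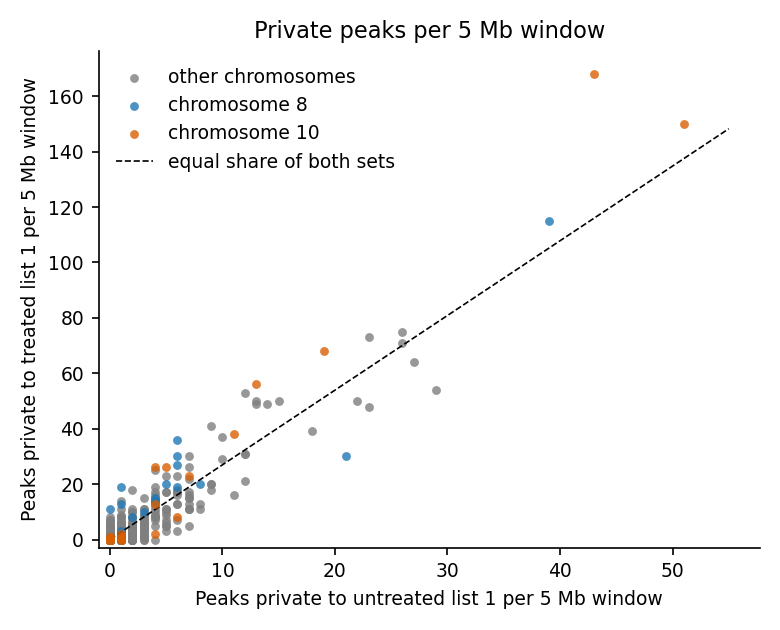
Private peaks per 5 Mb window in untreated list 1 (x axis) and treated list 1 (y axis), 1 point per window, with chromosomes 8 and 10 coloured and a dashed line where both sets place the same share. The fullest windows lie near the line, and the highest point is chromosome 10 from 75 to 80 Mb with 168 against 43 peaks.

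Measures of the private peaks were compared between treated and untreated lists with exact permutation tests, two-sided, whose smallest possible p is 0.2 with 2 lists against 3. There were 4 such comparisons, and no adjusted p can be lower than the raw ones given. The private peaks of each list depend on the other lists. List lengths ran from 528 to 10059 peaks, so the lists are not interchangeable units. The chromosomes and the stretch tested were chosen with the private peaks of treated list 1 known, so the p-values are a description only. The share of private peaks on chromosome 10 was 13.0% and 7.56% without the drug and 16.4%, 5.73% and 12.3% with it. The groups overlapped, with means of 10.3 ± 3.81% (SD, n = 2) and 11.5 ± 5.39% (SD, n = 3) and an exact permutation p of 1. On chromosome 8 the shares were 9.32% and 8.81% without the drug and 11.5%, 6.44% and 9.88% with it. The difference of 0.205 points was below the SD of the treated lists (2.58, n = 3, exact permutation p = 1). From 75 to 85 Mb of chromosome 10 the shares were 7.12% and 2.496% without the drug and 8.94%, 1.56% and 1.23% with it, a difference of -0.897 points (exact permutation p = 1) that became 1.82 points between treated list 1 and untreated list 1 and -1.26 points between treated list 3 and untreated list 2, the pairs that share a tag. Within these pairs the differences were 3.46 and 4.78 points on chromosome 10 and 2.18 and 1.07 points on chromosome 8, each from 1 list a side. Without treated list 1 the difference was -2.08 points on chromosome 10 and -1.68 points on chromosome 8. On chromosome 10 and its stretch from 75 to 85 Mb, treated list 1 and untreated list 1, 1 of each group, stood highest. On chromosome 8 the highest shares were those of treated lists 1 and 3.

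The private peaks were narrow. Their median width was 223 bp, with the middle 50% between 195 and 275 bp and a maximum of 910 bp, whereas the shared peaks of treated list 1 had a median of 263 bp and reached 2663 bp. The narrowest width of the list, 193 bp, was taken by 744 private peaks (20.9%) and 91 shared peaks (6.67%). Peaks of 400 bp or more made up 4.05% of the private and 22.4% of the shared peaks. Private peaks were narrower than shared ones by median in all 5 lists. The medians were 220 against 259 bp for untreated list 1, 356 against 431 bp for untreated list 2, 313 against 404 bp for treated list 2 and 224 against 248 bp for treated list 3. A wider peak has more bases with which to touch a peak of another list, so width is not independent of the rule.

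The lists with minimum widths of 193 to 200 bp had narrower private peaks by median than those with minimum widths of 291 and 332 bp. The narrowest peak was 193 bp in treated list 1, 199 bp in untreated list 1 and 200 bp in treated list 3, whose private peaks had medians of 223, 220 and 224 bp. It was 291 bp in treated list 2 and 332 bp in untreated list 2, with medians of 313 and 356 bp. The treated and untreated lists differed by -34.7 bp in median width (exact permutation p = 0.8). This difference ran from -101.7 bp without untreated list 1 to 34.3 bp without untreated list 2. Within the pairs that share a tag it was 3 bp (treated list 1 and untreated list 1) and -132 bp (treated list 3 and untreated list 2). Within the 10 fullest windows the private peaks of treated list 1 had a median width of 241 bp against 217 bp outside. The order was the same in untreated list 1 (235 against 216 bp) and untreated list 2 (381.5 against 351 bp). It was also the same in treated list 2 (359 against 308 bp) and treated list 3 (232 against 220 bp).

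**Figure D4:**
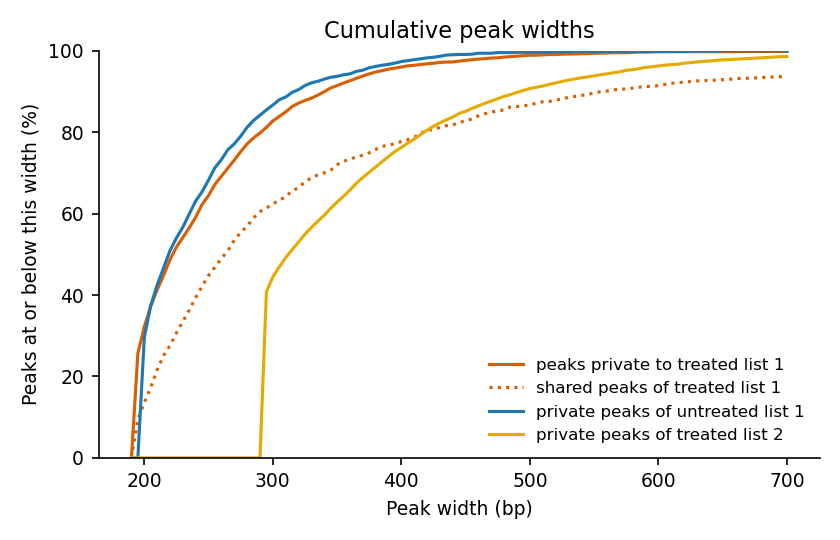
Cumulative share of peaks (y axis, percent) at or below a given width (x axis, bp) for peaks private to treated list 1, its shared peaks, and peaks private to untreated list 1 and to treated list 2. Private peaks of both lists numbered 1 nearly coincide, at medians of 223 and 220 bp, and the shared peaks extend further to the right.

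The widest private peak lay on chromosome 10 at 50104795 to 50105704 (910 bp), 53.1 kb from the nearest peak of another list. The next were on chromosome 10 at 80966840 to 80967666 (827 bp) and at 81023628 to 81024417 (790 bp), chromosome 1 at 142661561 to 142662316 (756 bp) and chromosome 8 at 145565390 to 145566111 (722 bp). Those of 827, 790 and 722 bp lay 429, 357 and 520 bp from a peak of another list. None was in the highest decile by score, with percentiles within the list of 62.3, 83.0, 60.3, 9.06 and 47.7 in the order given.

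By score the private peaks were spread over the lower and middle ranks of their list. Column 5 of the deposited list gives the authors' score per peak on a scale that is not named, and it was used here only for ranks within the list. The median private peak had a score of 6.96 and stood at percentile 43.7, while the median shared peak had 10.1 and stood at percentile 76.8. The share of private peaks was 81.3% in decile 1 of the list, the lowest by score, and lay between 78.9% and 85.2% up to decile 7. It was then 73.8% and 56.6% and, in decile 10 (scores of 15.2 and above), 15.2% (75 of 492 peaks, 95% Wilson interval 12.3 to 18.7%). Untreated list 1 was lower in every decile, with 65.6% to 71.2% private in deciles 1 to 7. It had 47.8% and 27.2% in deciles 8 and 9 and 13.8% in decile 10. Decile 10 was 16.2% private for untreated list 2, and 41.6% and 1.89% private for treated lists 2 and 3.

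**Figure D5:**
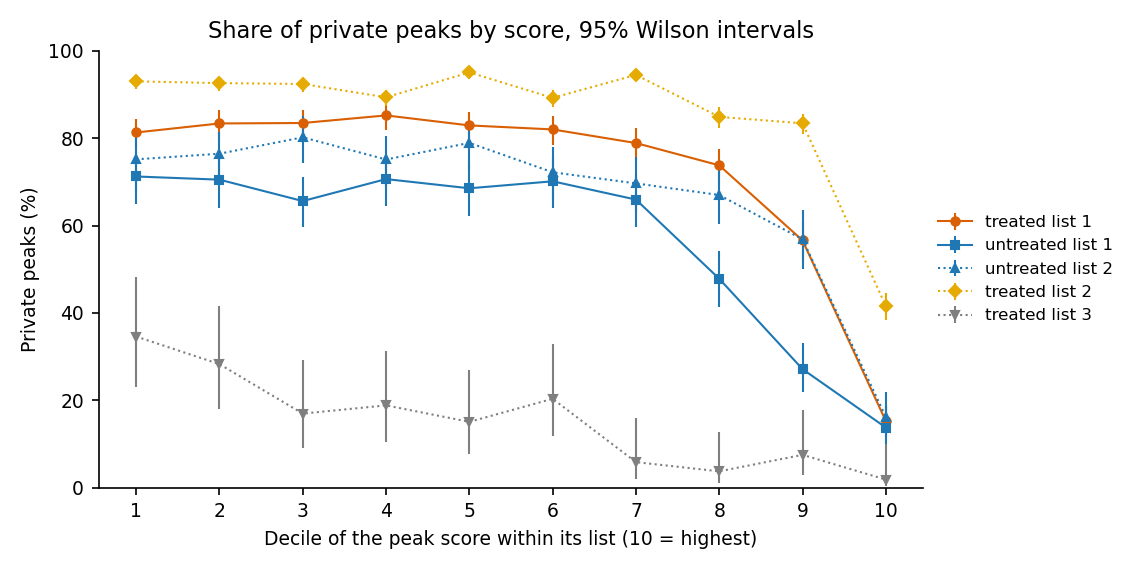
Share of private peaks (y axis, percent, with 95% Wilson intervals) by decile of the peak score within each list (x axis, 10 being the highest), for all 5 lists. Treated list 1 lies between 78.9% and 85.2% in deciles 1 to 7 and ends at 15.2%.

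Scores of private peaks were coarse, with 993 distinct values among 3558 peaks and 194 peaks (5.45%) at the commonest one, 6.32. Width told little of the score: Spearman's rho between them was -0.0608 over the private peaks of treated list 1 and 0.126 over its shared peaks, as a description across peaks of 1 library. Private peaks in the 10 fullest windows ranked slightly lower than the rest, at a median percentile of 41.4 against 44.6. In untreated lists 1 and 2 the medians were 35.3 against 43.5 and 35.6 against 43.9, whereas in treated list 2 they were 51.1 against 47.0 and in treated list 3 29.2 against 29.4. The highest score in the fullest windows was 19.1 on chromosome 10 from 75 to 80 Mb, so these windows held none of the 10 highest-scoring private peaks.

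The strongest private peak was the strongest peak of the whole list. It lay on chromosome 5 at 78619903 to 78620195 (293 bp) with a score of 94.3, and the nearest peak of any other list was 628 kb away, in untreated list 1. Of the 50 highest-scoring peaks of treated list 1 (the top 1%) it was the only private one. In the other lists the strongest private peak was outranked by 13 peaks in untreated list 1 (score 75.3, chromosome 18 at 52566885 to 52567172), by 69 in untreated list 2, by 127 in treated list 2 and by 11 in treated list 3. Those peaks lay 260 kb, 65.9 kb, 26.2 kb and 558 kb from the nearest peak of another list, in that order.

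The next private peaks of treated list 1 by score fell into those close to another list's peaks and those far from any. Close to others were chromosome 1 at 143281702 to 143281909 (score 39.5, 1.01 kb from treated list 2), the Y chromosome at 13464378 to 13464573 (38.7, 1.79 kb from untreated list 1), chromosome 4 at 49308071 to 49308415 (32.0, 849 bp from untreated list 1) and chromosome 9 at 98091965 to 98092202 (26.8, 7.34 kb from treated list 2). Far from others were chromosome 10 at 27824800 to 27825039 and chromosome 4 at 40924962 to 40925201 (30.6 each, 956 and 805 kb from the nearest peak) and chromosome 9 at 84458149 to 84458370 (29.3, 597 kb). Chromosome 19 at 2910738 to 2910953 (24.8, 170.5 kb) and chromosome 1 at 114567401 to 114567618 (25.4, 85.6 kb) lay between. All 10 were 196 to 345 bp wide, and the only one on chromosome 10 was outside its dense part.

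The most isolated private peaks ranked highest by median. Private peaks within 500 bp of another list's peak had a median score percentile of 40.9, those between 500 bp and 5 kb 39.6, those between 5 and 50 kb 42.5, those between 50 and 500 kb 47.7 and the 82 beyond 500 kb 58.7. Of these 82, 6 were in decile 10 of the list by score, a share of 7.32% against 2.56% of the nearest class. Their widths ran the other way, from a median of 244.5 bp in the nearest class to 211 bp in the farthest. In untreated list 1 the ends differed the same way, with percentiles of 35.3 in the nearest and 74.9 in the farthest class and widths of 243 and 211 bp. The 82 were scattered over 21 chromosomes, with 4 on chromosome 10 and 7 on chromosome 8.

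At short range most private peaks stood alone. When private peaks within 10 kb of each other were joined, 2533 (71.2%) had no neighbour, and 30 groups held 5 or more, 210 peaks in all. These 30 groups lay on 5 chromosomes, 17 of them on chromosome 10 and 7 on chromosome 14. The median spacing between neighbouring private peaks was 86.5 kb. A peak of untreated list 1 lay inside 21 of the 30 groups.

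The largest group was on chromosome 10 at 80925329 to 80992976, with 18 private peaks in 67.6 kb. Treated list 1 had 31 peaks there in all, and the other lists also had peaks in it, 14 and 6 without the drug and 20 and 2 with it. The second was on chromosome 14 at 90962338 to 91020106, with 15 private peaks in 57.8 kb beside 7 and 7 peaks of the untreated lists and 15 of treated list 2. Chromosome 10 at 81036556 to 81084725 held 12 and chromosome 14 at 91033419 to 91073833 held 10. Chromosome 19 at 8859221 to 8896473 held 9 private peaks among 20 of treated list 1, where untreated list 1 had 10 peaks, none of them private. The other 5 of the 10 largest groups held 8 or 9 private peaks and lay on chromosome 10 at 75562056, 79529928, 80521101 and 80764696 and on chromosome 19 at 50607707. In the group at 75562056 treated list 1 had 10 peaks against 1 and 1 in the untreated lists, 4 in treated list 2 and 0 in treated list 3. Each of these 10 groups thus also held peaks of at least 2 other lists.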

How the data were processed

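Chromatin from irradiated PC3 cells was immunoprecipitated for p300 and sequenced on the Ion Proton, per the labels' protocols, and the authors deposited 1 peak list per library. Peaks were called with MACS2 on hg19, per the submitters' processing notes; the sources used here do not name the aligner, version, threshold or input. The lists give coordinates and a score per peak whose scale the deposited files do not name, so the score served for ranks within a list only. Read depth is unknown. Positions are hg19 bases counted from 1; no annotation or genome of that build was used, so genes and sequences are not given.

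A peak was private when it shared no base (less than 1 bp) with any peak of the other 4 lists. Windows of 5 Mb were assigned by peak midpoint. Treated and untreated lists were compared with exact permutation tests over the 10 ways to divide 5 lists into 2 and 3. Regions named were the 10 fullest windows, the 10 highest-scoring and 5 widest private peaks and the 10 largest groups joined within 10 kb; the borders with gaps of 5 Mb or more, the parts of chromosomes 8 and 10 and the strongest private peak of the other lists were chosen after their values were seen. The members and the measures were chosen with earlier results of these data known. The counting was tested on simulated data. Alternatives were another overlap rule, only peaks at or above the median score, equal list lengths, autosomes and X only, leaving out lists, the replicate number as a block, medians and moved window borders. Python 3.11.15, numpy 2.4.6, pandas 2.3.3, scipy 1.17.1 and matplotlib 3.10.9 were used.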

Additional observations from a re-analysis of the deposited data

How the results depend on the processing

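The number of private peaks of treated list 1 was 1670 with the upper part of each list by score and 139 with equal numbers of top-scoring peaks, both of which hold fewer peaks. Their share of the list was 74.5% with 50% overlap, 67.5% with peaks within 500 bp counted as shared, 67.8% with the upper part by score, 26.3% with equal numbers and 72.8 to 80.4% without 1 of the other lists. With equal numbers 7.91% lay on chromosome 10 and 8.63% on chromosome 8. The share from 75 to 85 Mb of chromosome 10 was 7.73% under the 500 bp rule, 10.2% with the upper part by score and 6.47% with equal numbers. The gap in score percentile to shared peaks, -33.1 points, was -26.0, -22.0 and -3.62 in these settings and -39.5 to -33.3 without 1 list. Percentiles were those of the full list. The upper part by score and equal numbers keep only its high percentiles, which by itself limits how large the gap can be. The difference between treated and untreated lists reversed with the upper part by score on chromosome 10 (-1.16 points) and chromosome 8 (-0.763), with equal numbers on chromosome 8 (-0.749) and from 75 to 85 Mb (1.72), and between treated list 1 and untreated list 1, which share a run tag, from 75 to 85 Mb (1.82) and for width (3 bp). Without 1 list it ran from -2.08 to 3.999 points on chromosome 10, -1.68 to 0.265 on chromosome 8, -3.38 to 1.41 from 75 to 85 Mb and -101.7 to 34.3 bp for width. Its sign turned on chromosome 10 without treated list 1 (-2.08) or untreated list 2 (-1.57), on chromosome 8 without treated list 1 (-1.68), untreated list 2 (-0.623) or treated list 3 (-0.131), from 75 to 85 Mb without untreated list 1 (1.41), treated list 2 (0.685) or treated list 3 (0.468), and for width without untreated list 2 (34.3 bp). The cause was not tested. As a replicate block, lists of the same number gave 0.814, -0.0984 and 0.441 points and -20 bp. The numbers are not stated to pair the samples. Deviations of lists 1 and 2 from their group means correlated at 0.719 over 602 windows. With only 2 untreated lists, their deviations mirror each other, and windows are not replicates, so this value cannot show pairing. The settings without treated list 1 and within the pairs sharing a tag were chosen after seeing the data.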

Other observations

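The Y chromosome, of which PC3 is known to carry no normal copy, held 41 peaks of treated list 1, 17 of them private. The other lists had 23 and 11 peaks (untreated lists 1 and 2) and 27 and 6 (treated lists 2 and 3), with 7, 3, 7 and 0 private. In treated list 1, 27 of the 41 lay from 10 to 15 Mb, 9 of these private, and the private peaks of the chromosome had a median score percentile of 79.3, the highest of any chromosome. In the other lists the part from 10 to 15 Mb also held the most, with 20 of 23, 7 of 11, 22 of 27 and 6 of 6.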
